A study of Arabidopsis thaliana with 20 samples.

Results

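These results concern 7583 regions of the Arabidopsis thaliana pericentromeres that were called as differentially methylated between the DNA methyltransferase mutant met1-3 and wild type in the CHH context alone. They are 38.5% of the 19712 met1 CHH differentially methylated regions (DMRs) and part of 81944 DMRs in all. A DMR spans 100 bp on a 50 bp grid, with coordinates on TAIR10. It was counted here if it shared no base with a met1 DMR of the CG or CHG context and started within the pericentromeres. These were taken as 11.5 to 17.7 Mb of chromosome 1, 1.1 to 7.2 Mb of chromosome 2, 10.3 to 17.3 Mb of chromosome 3, 1.5 to 6.3 Mb of chromosome 4 and 9.0 to 16.0 Mb of chromosome 5. The choice used positions only, not histone values.

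In plants, cytosines are methylated in CG, CHG and CHH contexts (H is A, C or T). MET1 copies CG methylation onto the new strand after replication. CHH methylation has no such template and is laid down afresh, by DRM2, which small RNAs and the transcripts of RNA polymerase V guide, and by CMT2, which binds histone H3 methylated at lysine 9. The pericentromeres are the heterochromatin around the centromeres, rich in transposons and densely methylated. Loss of MET1 is known to alter CHH methylation as well as CG methylation. Whether CHH methylation rose or fell in each DMR is not given in the sources used here.

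Both groups were leaves of 3.5-week-old plants of the Columbia background, one wild-type Col-0 and the other met1-3, a mutant allele of MET1, with 2 libraries per group. Nothing in the labels says that the 2 libraries came from separate plants. Later paragraphs also use H3 profiles of the mutants drm2 and cmt3 of the same set. They further use bisulfite profiles of Col-0, nrpe1 and swi3b from another set. These groups too had 2 libraries each, of 3.5-week-old plants. Chromatin was cut with micrococcal nuclease, which spares DNA held by nucleosomes, and fragments bound by an antibody to histone H3 were sequenced. The labels link each deposited table to both libraries of a genotype, and it was taken to hold 1 combined profile. No spread between libraries could thus be computed, and no test was made. Differences are given as values, with the range over the 5 chromosomes or an interval that covers counting error only. The met1-3 profile was shallower. Its coverage over the outer ends (flanks) of all met1 CHH windows was 0.374 times that of Col-0, and met1-3 values were divided by that ratio. A single met1-3 fragment over the whole DMR then counts as 2.67, and values near that level are imprecise.

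The CHH-only DMRs were spread over all 5 pericentromeres. There were 1326 on chromosome 1, 1728 on chromosome 2, 1631 on chromosome 3, 1098 on chromosome 4 and 1800 on chromosome 5, or 214 to 283 per Mb. Across the genome, 50.1% of the 15139 met1 DMRs of CHH alone lay in the pericentromeres. Within the pericentromeres, 72.2% of met1 CHH DMRs were of this kind, and the other 2925 overlapped a CG or CHG DMR. The members overlap one another and cover 593200 distinct bases. Joined where they touched, they formed 4043 runs, of which 2052 held 1 DMR and the longest reached 900 bp. Many stood close to a region with a CG or CHG change. The median gap was 450 bp, 50.3% lay within 500 bp, and 910 abutted such a DMR.

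The CHH-only DMRs seldom lay in protein-coding genes. They touched an annotated protein-coding gene in 6.15% of cases, although such genes take up 21.8% of the pericentromeric bases. Pseudogenes, the class under which this annotation also lists many transposon genes, were touched by 35.8% of the DMRs and take up 27.5% of the bases. The remaining main group, 56.6% of the DMRs, touched no gene of the RefSeq table (assembly TAIR10.1). A DMR of 100 bp is counted when any base is in a gene, so its share is not exactly comparable with the share of bases. CHH-only DMRs of the arms differed in this respect, with 23.4% in protein-coding genes and 9.91% in pseudogenes. Of the pericentromeric CHH DMRs shared with CG or CHG, 4.51% touched a protein-coding gene and 52.0% a pseudogene. The low protein-coding share is thus not particular to the CHH-only DMRs of the pericentromeres.

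H3 coverage over the CHH-only pericentromeric DMRs was low in wild type. It averaged 4.82 fragments per base in Col-0, with a median of 0.67 and a maximum of 334. In met1-3 the scaled mean was 5.21, the median 0 and the maximum 908. A total of 40.5% of these DMRs had no Col-0 fragment, 55.1% had no met1-3 fragment, and 35.3% were empty in both. Over all met1 CHH DMRs these shares were near the same, at 40.7%, 55.9% and 36.1%. At the central base, 51.2% of DMRs were empty in Col-0 and 65.9% in met1-3, and 62.7% of them would be empty in Col-0 at the depth of met1-3. The last value rests on the flank scale and on counts at that base, and the part of depth in the empty DMRs was not tested. The pericentromeric DMRs shared with CG or CHG were fuller, at a mean of 19.1 in Col-0 and 15.0 in met1-3, and the CHH-only DMRs of the arms were emptier, at 2.14 and 2.26.

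On average, the DMRs sat in a trough of H3 coverage, and the trough was there in both genotypes. In Col-0, coverage over the DMR was 0.639 times that of the outer flanks, at 4.82 against 7.54 fragments per base. In met1-3 the ratio was 0.656, at 5.21 against 7.95. The lowest point of the mean profile was 4.69 in Col-0, 11 bp from the centre, and 5.08 in met1-3, 15 bp from the centre. Within 5 chromosomes the Col-0 ratio lay between 0.561 and 0.710 and the met1-3 ratio between 0.528 and 0.791, so that every chromosome had the trough in each genotype. The log2 change of the ratio from Col-0 to met1-3 was 0.04 over all members, with -0.17 on chromosome 2 and 0.21 on chromosome 1 as its extremes. Coverage was lower over the DMR than in its own flanks at 57.4% of the DMRs in Col-0 and at 57.4% in met1-3, and at 47.0% in both. Coverage was higher than in the flanks at 28.7% of the DMRs in Col-0 and at 23.8% in met1-3. The lower DMRs include empty ones with fragments in the longer flanks, 26.6% of all members in Col-0 and 36.3% in met1-3. The part of sparse coverage in this was not tested. Among arm CHH-only DMRs, 42.9% in Col-0 and 46.4% in met1-3 were lower than their flanks. Among the pericentromeric DMRs shared with CG or CHG, 42.5% and 47.4% were. All these shares include windows without fragments, which cannot be lower and were commoner in the arms. Of the members with fragments, 4356 of 6530 in Col-0 and 4355 of 6158 in met1-3 were lower than their flanks. For arm CHH-only DMRs these counts were 3244 of 5510 and 3507 of 5058, so the sets are closer than the shares of all DMRs. For the shared DMRs they were 1243 of 2827 and 1387 of 2681.

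**Figure D1:**
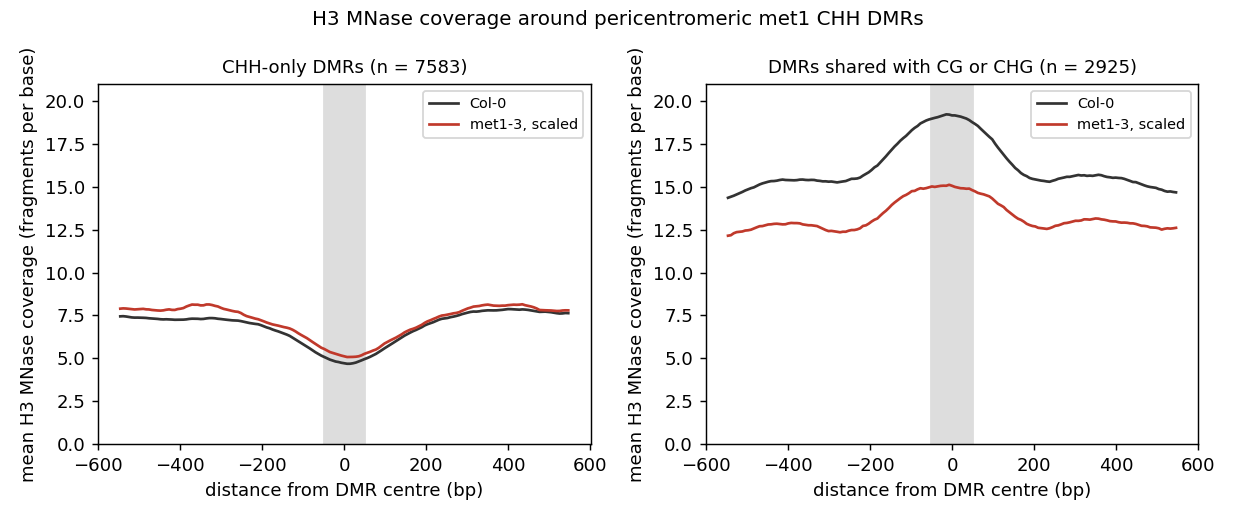
Mean H3 MNase coverage in fragments per base (vertical axis) against distance from the DMR centre in bp (horizontal axis) for the 7583 CHH-only DMRs and the 2925 DMRs shared with CG or CHG in the pericentromeres, in Col-0 (black) and scaled met1-3 (red), with the DMR shaded. The CHH-only DMRs lie in a trough in both lines (4.82 over the DMR against 7.54 in the flanks in Col-0), whereas the shared DMRs lie on a peak that is lower in met1-3.

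In Col-0 the trough lay in the height of coverage rather than in the number of covered DMRs. There, 48.7% of the DMRs were covered at a base of the DMR and 48.9% at a base of the flanks, on average. In met1-3 these shares were 34.0% and 38.8%. The shared DMRs had the opposite shape, with ratios to the flank of 1.26 in Col-0 and 1.18 in met1-3. Arm CHH-only DMRs were also in a trough, at 0.819 in Col-0 and 0.725 in met1-3. The difference in shape between these sets was not tested, since the sets have no replicate values. The trough is a mean over all members, and those with a Col-0 coverage over 20 and up to 50 were by their selection above their flanks, at 1.68 times in Col-0 and 1.49 times in met1-3.

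Over all CHH-only DMRs, no common direction was seen between the genotypes. With 1 added to each value, log2(met1-3/Col-0) had a median of 0 and a mean of -0.14. Coverage summed over all members gave a log2 ratio of 0.11. Coverage was lower in met1-3 at 38.0% of the DMRs and higher at 26.7%, beside 40.5% and 23.4% of all met1 CHH DMRs. It was lower by at least 2-fold at 1259 DMRs (16.6%) and higher by at least 2-fold at 787 (10.4%). Over all 19712 met1 CHH DMRs, these shares were 17.8% and 8.31%, so both shares of the members are near the background. A value such as 0 against 2.67 is already past 2-fold in this scheme, so that most of these calls are of sparse DMRs. The pericentromeric DMRs shared with CG or CHG had a log2 ratio of summed coverages of -0.35 and were lower at 63.5%.

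**Figure D2:**
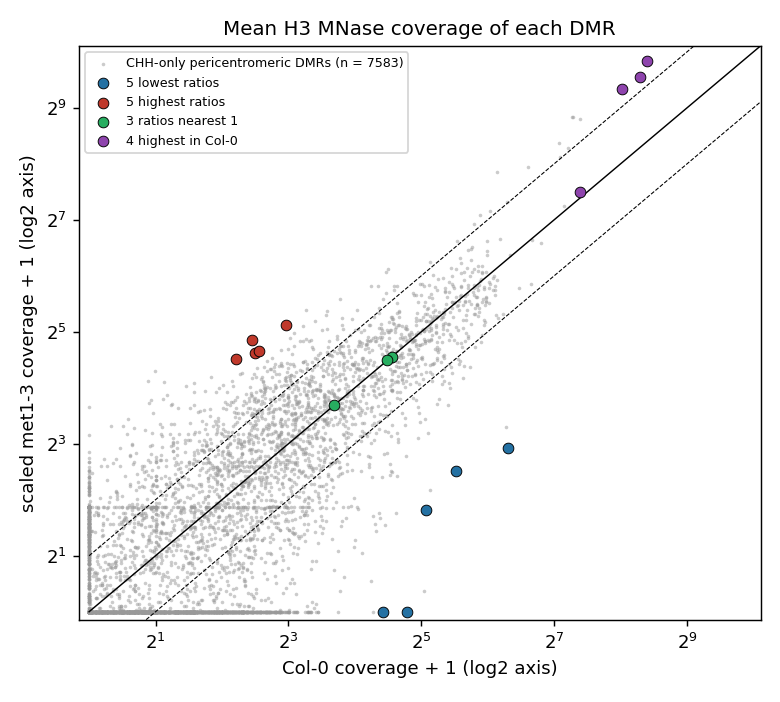
Mean H3 MNase coverage of each of the 7583 CHH-only DMRs in Col-0 (horizontal axis) and scaled met1-3 (vertical axis), both with 1 added and on log2 axes. The solid line marks equality, the dashed lines a 2-fold difference, and coloured points the DMRs named in the text, with 3 of the 4 fullest DMRs above the upper dashed line.

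The sign of the summed ratio depended on how depth was matched, and its size on a few DMRs. Scaling on distinct flank bases of the CG, CHG and CHH tables together shifted every log2 value by -0.14 and gave a summed ratio of -0.02. Scaling on whole windows of those tables gave -0.06. The 13 DMRs with a Col-0 coverage over 100 carried 6.33% of the summed Col-0 coverage and 12.9% of the summed met1-3 coverage. Without them the summed ratio was 0.01. Across chromosomes, the summed ratio was 0.30 on chromosome 1, -0.07 on chromosome 2, -0.21 on chromosome 3, 0.10 on chromosome 4 and 0.36 on chromosome 5. The flanks of the same windows had 0.09, 0.10, -0.13, 0.02 and 0.23. With the main scaling, the flanks thus shared the sign of the DMRs on all chromosomes except chromosome 2. Several of these values are smaller in size than the shift of -0.14, so this match of signs depends on the scaling.

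At DMRs chosen as full in Col-0 the medians were slightly below 0. Among members with a Col-0 coverage over 10 and up to 20, the median log2 ratio was -0.10 (n = 440), and it was -0.13 both for those over 20 and up to 50 (n = 397) and for those over 50 (n = 102). For those over 50, however, the summed log2 ratio was 0.44, with 15 DMRs higher and 5 lower by 2-fold. The median shifts were no larger than the shift of -0.14 that another scaling made. Choosing DMRs by their Col-0 level also favours those that happen to be high there. Medians below 0 were not particular to these DMRs. Members over 1 and up to 2 in Col-0 had -1.07, those over 2 and up to 5 had -0.66, and those over 5 and up to 10 had -0.17. The 1012 members with a coverage of at least 20 over both genotypes together had a median of 0.08. Of the 3069 DMRs without a Col-0 fragment, 12.8% had a fragment in met1-3.

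**Figure D3:**
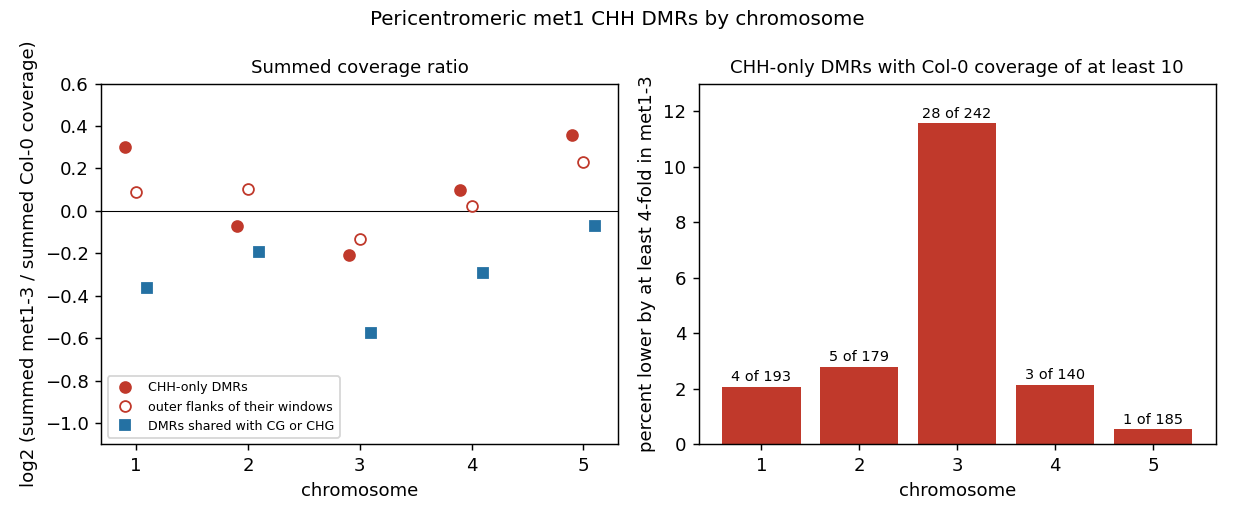
Left, the log2 ratio of summed met1-3 to summed Col-0 coverage (vertical axis) by chromosome (horizontal axis) for CHH-only DMRs (filled circles), the outer flanks of their windows (open circles) and pericentromeric DMRs shared with CG or CHG (squares). Right, the percentage of CHH-only DMRs reaching a Col-0 coverage of 10 that were lower by at least 4-fold in met1-3, by chromosome; chromosome 3 had 28 of 242, against 1 to 5 DMRs on each of the other chromosomes.

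Chromosome 3 held most of the DMRs that were far lower in met1-3. Among CHH-only DMRs that reached a coverage of 10 in Col-0, 41 of 939 (4.37%) were lower by at least 4-fold in met1-3, beside 5.28% of all met1 CHH DMRs at that level. Of those 41 DMRs, 28 were on chromosome 3, where they made up 11.6% of 242 DMRs and belonged to 18 loci. The other 4 chromosomes had 13 of 697 (1.87%). All met1 CHH DMRs were distributed likewise, with 12.1% on chromosome 3 and 1.56% to 4.12% elsewhere. The 28 DMRs of chromosome 3 were scattered, from 10514201 to 16498200, with several between 15034351 and 15036400 and between 15578751 and 15583800. They averaged 25.0 in Col-0 and 2.38 in met1-3, and their outer flanks were lower as well, at 28.2 against 8.82, so the difference reached past the DMR itself.

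The 5 DMRs with the lowest ratios, among the 1012 members with a coverage of at least 20 over both genotypes together, were all on chromosome 3. Of these 1012, 78 were lower by at least 2-fold (7.71%, beside 12.5% of all such met1 CHH DMRs) and 139 higher (13.7%, beside 7.88%). The lowest was chr3:15578751-15578850, which abuts a CG or CHG DMR. It had a coverage of 26.5 in Col-0 and no met1-3 fragment. At its central base, 26 Col-0 and 0 met1-3 fragments were counted. Its flanks went from 14.8 to 1.71.

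A nearby DMR, chr3:15581601-15581700, had 20.5 in Col-0 and none in met1-3, and lies in the pseudogene AT3G43681. The DMR chr3:14807751-14807850, in the pseudogene AT3G42727, had 78.4 in Col-0 and 6.60 in met1-3, a log2 ratio of -3.38. Its central base had 80 Col-0 and 3 met1-3 fragments. The DMR chr3:13248401-13248500, in the pseudogene AT3G32295, had 32.5 and 2.54 (log2 ratio -3.24). The DMR chr3:12841301-12841400, in the pseudogene AT3G31530, had 44.7 and 4.68 (log2 ratio -3.01). These 5 DMRs were picked for their low ratios and reached the coverage minimum through Col-0, so their values are a description only. The flanks of these 5 had log2 ratios of -3.22 to -1.47.

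The same bases were measured in drm2, a mutant of the CHH methyltransferase of the small RNA pathway, at 21 of these 28 chromosome 3 DMRs, in 13 loci. They averaged 25.5 in Col-0, 2.29 in met1-3 and 28.7 in drm2, the last scaled on the distinct flank bases of the 3 drm2 tables. Of the 21 DMRs, 2 were lower by at least 2-fold in drm2. These are the overlapping DMRs chr3:10514201-10514300 and chr3:10514251-10514350, which had no drm2 fragment and whose flanks were higher in met1-3 than in Col-0. The other 19 were close to or above Col-0 in drm2. At chr3:15578751-15578850, for example, drm2 had 25.8, and at chr3:14807751-14807850 it had 67.2. Since these DMRs were chosen for a high Col-0 value and a low met1-3 value, and both comparisons share Col-0, the 3 values are set side by side with no test.

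**Figure D4:**
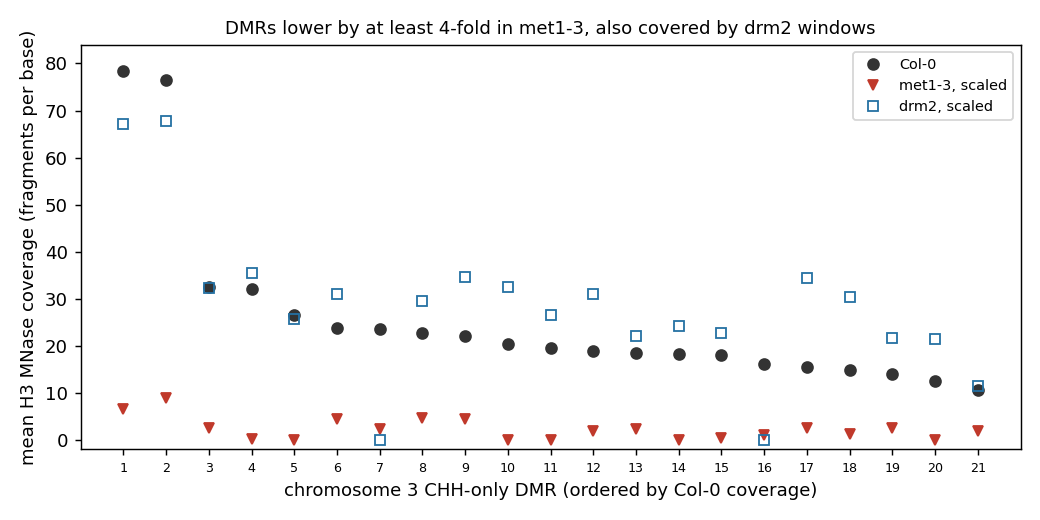
Mean H3 MNase coverage in fragments per base (vertical axis) in Col-0 (black circles), scaled met1-3 (red triangles) and scaled drm2 (blue squares) for 21 chromosome 3 CHH-only DMRs chosen as lower by at least 4-fold in met1-3, ordered by Col-0 coverage (horizontal axis). The met1-3 points lie at or below 8.84, and all but 2 of the drm2 points lie near or above the Col-0 points.

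The highest ratios were at DMRs that were sparse in Col-0. The DMR chr1:13189851-13189950, in the pseudogene AT1G35650, had 4.46 in Col-0 and 28.1 in met1-3, with 4 and 12 fragments at the central base and a log2 ratio of 2.41. The next was chr5:11885751-11885850, which touches no annotated gene, at 3.63 and 21.9 (log2 ratio 2.31). It was followed by chr1:12833551-12833650 in the pseudogene AT1G35110, at 6.83 and 33.6, whose flanks were nearly empty in both lines (0.219 and 0). The DMRs chr4:4753201-4753300 and chr5:11401301-11401400 had log2 ratios of 2.11 and 2.10. These 5 were picked for their high ratios, reached the coverage minimum through met1-3 and rest on 10 to 12 met1-3 fragments each at the central base. Their flanks had log2 ratios of -0.29 to 0.78, and were higher in met1-3 at 4 of the 5.

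The 3 DMRs named for ratios nearest to 1 had like coverage over the DMR itself, which is why they were chosen. The DMR chr1:15708651-15708750, in the pseudogene AT1G42050, had 11.9 in both genotypes. The DMR chr1:13772951-13773050, in the pseudogene AT1G36520, had 22.5 in both, and chr5:12978551-12978650 had 21.5 in both. The flanks of the first were 31.0 in Col-0 and 21.4 in met1-3, and those of the second 33.0 and 21.4, so coverage around both was lower in met1-3. The flanks of the third were 4.50 and 5.39. With 5 to 10 met1-3 fragments at the central base, 95% intervals of the met1-3 share of fragments were wide, for example 13.8% to 44.1% at the third.

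The fullest CHH-only DMRs fell into a few loci. All 13 with a Col-0 coverage over 100 lay in 8 loci, and 9 of the 13 were higher by at least 2-fold in met1-3. Those 9 lay between 15083201 and 15085100 on chromosome 1 and between 11703351 and 11731750 on chromosome 5. The fullest of all, chr5:11731651-11731750, had 334 in Col-0 and 908 in met1-3, with a met1-3 share of central-base fragments of 49.5% (95% interval 45.4% to 53.6%), where equal occupancy would give 27.2%. Its neighbour chr5:11729251-11729350 had 312 and 746, and drm2 had 244 there. At chr1:15083201-15083300, in the protein-coding gene AT1G40104, the values were 259 and 643. Their flanks were higher by 1.25 to 1.58 on the log2 scale, about as much as the DMRs themselves.

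The other 4 of the 13 differed between the lines by less than 0.25 in log2 ratio. The DMR chr5:11324551-11324650, which touches the pseudogene AT5G29975 and MIR854b, a microRNA locus, had 166 in Col-0 and 180 in met1-3, and its overlapping neighbour had a log2 ratio of 0.09. The DMRs at chr4:5025051-5025150 and chr5:11803051-11803150 had log2 ratios of -0.02 and -0.22. Coverage this far above the rest of the DMRs can include fragments from several copies of a repeat, which was not tested. The 1 Mb bins that hold the 9 higher DMRs, from 15 Mb of chromosome 1 and from 11 Mb of chromosome 5, had summed log2 ratios of 0.75 and 0.92. Of all 35 bins, 23 lay within 0.25 of 0, and the lowest were -0.64 from 15 Mb and -0.60 from 16 Mb of chromosome 3.

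The 3 loci with the most CHH-only DMRs held mixtures of both directions. The largest, chr5:12968601-12981850, holds 107 DMRs over 13.25 kb with the pseudogenes AT5G34800 and AT5G34810 among its genes. The mean was 9.12 fragments per base for Col-0 and 9.19 for met1-3, with 52 DMRs below Col-0 and 35 above. The locus chr2:7006501-7019950, with 90 DMRs, had 5.61 and 5.46, with 55 lower and 25 higher. The locus chr3:14844701-14860950, with 80 DMRs, had 4.54 and 4.16, with 42 lower and 23 higher. Single DMRs within the chr3 locus ranged from -3.34 to 1.88 in log2 ratio. The summed log2 ratios of the 3 loci were 0.01, -0.04 and -0.13. The SD of 0.24 over the 5 chromosomes is of whole-chromosome sums and does not measure the spread of single loci.

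H3 coverage of the CHH-only DMRs was higher next to CG or CHG DMRs. Members that abut one had a mean of 8.32 in Col-0 and 8.08 in met1-3. At gaps from 200 to under 500 bp the means were 4.22 and 4.16, and at gaps of 5000 bp or more they were 2.37 and 2.92. The flanks went the same way in Col-0, from 11.2 to 2.96, so coverage of the whole neighbourhood was lower far from CG or CHG DMRs. The summed log2 ratio was -0.04 where DMRs abut and 0.69 at gaps from 2000 to under 5000 bp. This last value was 0.34 without the DMRs over 100 in Col-0, of which 8 lay in that class. Below a gap of 500 bp the flanks were slightly lower in met1-3 (log2 ratios of -0.14 to -0.11), and from 1000 bp on they were higher (0.35 to 0.77). At the edge of the rule, the 910 members with a gap of 0 had 8.32 in Col-0, and the 1308 pericentromeric CHH DMRs that share at most 50 bases with a CG or CHG DMR had 14.5.

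**Figure D5:**
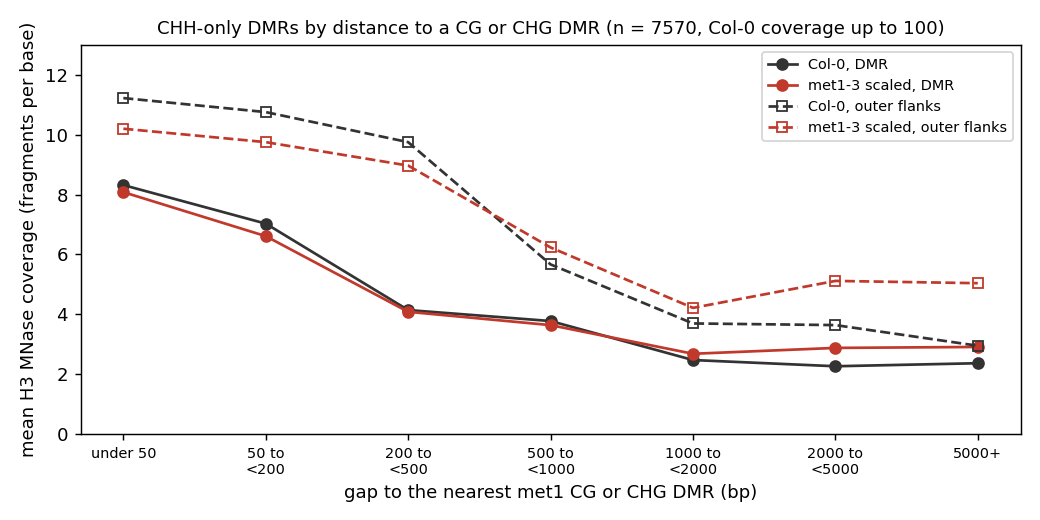
Mean H3 MNase coverage in fragments per base (vertical axis) over the DMR (filled circles, solid lines) and the outer flanks of its window (open squares, dashed lines) by gap to the nearest met1 CG or CHG DMR in bp (horizontal axis), for the 7570 CHH-only DMRs with a Col-0 coverage of 100 or less. Coverage was highest next to a CG or CHG DMR, at 8.32 in Col-0 and 8.08 in met1-3, and the DMR stayed below its flanks in every class in both lines.

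DMRs in pseudogenes were fuller than those outside genes. The mean over the 2710 members in a pseudogene and no protein-coding gene was 8.61 in Col-0 and 8.52 in met1-3. The mean over the 4293 members outside all genes was 2.27 and 2.56. Both groups were below their flanks, at 0.750 and 0.443 times in Col-0. The 466 members in protein-coding genes had 6.96 and 11.2, and this group includes the chromosome 1 DMRs of AT1G40104. By run length, the mean log2 ratio was -0.03 for DMRs that stand alone, -0.13 in runs of 2, -0.21 in runs of 3 or 4, and -0.27 both in runs of 5 to 9 and in runs of 10 or more. DMRs that stand alone were lower in met1-3 at 35.6% and higher at 32.4%, and those in runs of 10 or more at 44.1% and 21.2%. The DMRs without a met1-3 fragment made up 47.4% and 61.2% of these. Summed coverage had no such order, with log2 ratios of 0.27 for DMRs that stand alone, 0.29 in runs of 5 to 9 and 0.05 in runs of 10 or more.

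Part of the CHH-only DMRs were also DMRs of drm2. A total of 1141 members (15.0%) shared a base with a drm2 CHH DMR, beside 23.9% of the CHH-only DMRs of the arms. Of the pericentromeric DMRs shared with CG or CHG, 12.5% did. The paragraph turns first to the 1141 members. These 1141 were nearly empty, with means of 1.58 in Col-0, 1.10 in met1-3 and 0.506 in drm2. Their summed log2 ratios were -0.53 in met1-3 and -1.65 in drm2. In met1-3, 34.6% were below and 13.1% above Col-0, and in drm2, 39.8% were below and 7.89% above. Over their flanks, met1-3 had a summed log2 ratio of 0.22. The 2316 members covered by drm2 windows but in no drm2 DMR had 5.71 in Col-0, 5.45 in met1-3 and 6.82 in drm2. A total of 83 members (1.09%) shared a base with a DMR of cmt3, the CHG methyltransferase mutant. For cmt3 CHG DMRs the share was 0.422% of the members, 0.212% of the arm CHH-only DMRs and 6.46% of the shared pericentromeric DMRs. For cmt3 CHH DMRs these shares were 0.673%, 2.73% and 0.274%. At the 535 members that cmt3 windows covered, the means were 6.77 in Col-0, 7.50 in met1-3 and 6.79 in cmt3. The drm2 and cmt3 values were scaled on the distinct flank bases of their own 3 tables, and the same scaling would shift the met1-3 log2 ratios by -0.14. The mutant comparisons share Col-0, and differences between them were not tested.

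DNA methylation was measured by bisulfite sequencing in another set of libraries of 3.5-week-old leaves, at nucleosomes listed by the authors for RNA polymerase V and for SWI3B. NRPE1 is the large catalytic subunit of RNA polymerase V (Pol V), and SWI3B belongs to chromatin remodellers of the SWI/SNF type. Of the CHH-only DMRs, 36 (0.475%) touched 1 of the 690 Pol V nucleosomes, and 83 lay at least in part in the window around one. The same share over all met1 CHH DMRs is not given here, so 0.475% cannot be called low or high. At cytosines inside the CHH-only DMRs, the methylation level averaged over 19 windows was 22.2% in Col-0 and 0.442% in nrpe1. It was lower in nrpe1 in 17 windows, equal in 2, where both lines had 0, and higher in 0. Levels outside the CHH-only DMRs are not given here, so the difference is not shown to be particular to them. Some of these windows overlap and hold the same cytosines. Among the 16 that share no base, it was lower in 14, equal in 2 and higher in 0, at means of 22.7% and 0.464%. For swi3b, 24 windows averaged 21.2% against 25.6% for Col-0, with 15 lower, 8 higher and 1 equal, and the 20 that share no base averaged 19.4% against 25.9%, with 14 lower, 5 higher and 1 equal. Around SWI3B nucleosomes, the levels were 22.7% in Col-0 and 0.718% in nrpe1 over 16 windows, and 24.0% in Col-0 and 14.2% in swi3b over 18. These means rest on few DMRs, on combined replicates and on read depths that are unknown, and the met1-3 mutant was not among the bisulfite libraries used here. The 36 DMRs on Pol V nucleosomes were nearly empty of H3 in the methyltransferase set, at 0.768 in Col-0 and 1.01 in met1-3.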

How the data were processed

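The series holds 20 libraries. H3 values were used from the 2 Col-0 and 2 met1-3 libraries of the methyltransferase set, beside drm2 and cmt3. Per the labels, each table belongs to both replicates of a genotype, so values were taken as the authors' combined values. The deposited signal is whole-number coverage per base, with 1099 values for each window of 1100 bp in the row name, so that positions are uncertain by the missing base. The deposited methylation fraction is between 0 and 1 per cytosine, and its context, caller and read depth are not given in the sources used here. The submitters' processing notes name the build TAIR10 and Bowtie2, Picard, Bismark and methylKit without their roles. How DMRs were called is not given in the sources used here. Isolated stretches of coverage had a median length of 158 bp in Col-0 and 160 bp in met1-3.

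The DMR value was the mean over its 100 bases, 500 bases into the window. Depth was matched on outer flanks, a pseudocount of 1 was added, and a difference of 2-fold (log2 of 1) was called. Such a log2 value understates changes at low coverage, and where a genotype had no fragment it depends on the pseudocount. Intervals are exact Clopper-Pearson 95% intervals of counts at the central base. No per-sample depth can be given. Members were merged into loci at gaps of up to 1000 bp, and each locus was named at most once. Named were the 5 lowest, 5 highest and 3 nearest-to-0 ratios among DMRs with a summed coverage of at least 20, the 4 highest in Col-0, and the 3 loci with most DMRs. DMRs printed from the chromosome 3 DMRs lower by 4-fold and the DMRs over 100 beside these were chosen after their values were seen. The members, lists and rules were chosen with earlier results of these data known. Gene names come from RefSeq (TAIR10.1), with nuclear coordinates treated as those of TAIR10. Sequences were not used here. Python 3.11.15, numpy 2.4.6, pandas 2.3.3, scipy 1.17.1 and matplotlib 3.10.9 were used, and the procedure was tested on simulated data. Alternatives were other pseudocounts, scalings, coverage minimums, widths and member sets.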

Additional observations from a re-analysis of the deposited data

How the results depend on the processing

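No paired analysis was possible because each table is linked to both replicates of a genotype and holds 1 profile. For the same reason no replicate could be left out. Of 86 alternative values of the summaries, 59 stayed within the spread over chromosomes, the counting interval or 1.5 times the count, and 27 moved. Only the median and the summed ratio could be counted as reversed, and only if beyond that spread under the main settings. Neither was, so no reversal could be counted. The summed log2 ratio did change sign, from 0.11 to -0.02 and -0.06, under the scalings on distinct bases of the CG, CHG and CHH tables. The cause was not tested unless named here. The median of 0 became -0.14 as a mean over members, -0.11 for Col-0 coverage of at least 10 and 0.10 for summed coverage of at least 10. With a pseudocount of 5, which shrinks sparse ratios by construction, 194 DMRs were lower and 155 higher by 2-fold, and over the whole window 391 and 291. Among fewer DMRs, these counts were 137 and 47 with Col-0 coverage of at least 10, 180 and 270 with summed coverage of at least 10, and 550 and 411 at least 500 bp from a CG or CHG DMR. Among non-overlapping DMRs 818 were lower. The DMR to flank ratio became 1.42 in Col-0 and 1.28 in met1-3 with Col-0 coverage of at least 10, and 1.19 and 1.20 with summed coverage of at least 10, since these minimums select full DMRs. At least 500 bp from a CG or CHG DMR it was 0.718 in Col-0, and the summed log2 ratio was 0.36. For the DMRs over 100 in Col-0 alone, which were set apart after the data were seen, that ratio was 1.14. The share of DMRs lower in met1-3 was 57.0% and 44.0% under those minimums, 35.3% for the central 50 bp, 47.8% for the whole window, 36.4% without chromosome 3 and 31.7% at least 500 bp from a CG or CHG DMR. The 10 DMRs with the largest changes kept their sign under all 80 alternative values, and 7 of them stayed past 2-fold over the whole window, where all 10 did under the other pseudocounts, scalings and widths. These 10 were picked as extremes of the same values, and another pseudocount cannot change a sign. The scalings shifted log2 values by at most 0.17, far less than these ratios. Only the other widths could thus have changed a sign. Leaving out overlapping methylation windows, also chosen after seeing the data, kept each count of lower windows within 1.5 times. Low depth in met1-3 limits every value near 2.67.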
